A study of Apis mellifera with 18 samples.

Results

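The later part of adult maturation without insecticide was described from 6 libraries of control honey bee (Apis mellifera) brains, 3 taken at 10 d (C_10d) and 3 at 5 d (C_5d). They were chosen by their labels from the 18 libraries of the series. Newly emerged workers were kept in cages in a dark incubator and fed 2 mL of a 50% sucrose solution. The controls received the solution without dinotefuran, and the treated bees (DT), whose DT_10d and DT_5d libraries are set beside the controls at a few places, received it with 0.01 mg/L of this neonicotinoid insecticide. RNA of several brains was pooled for each library, so the values are averages over bees and no value belongs to 1 animal. Strain is not given in the labels, and the bees lived in cages and not in a colony. The labels do not say whether the libraries of a group came from separate cages or colonies, so the tests measure the spread between libraries. For each gene this spread was estimated within groups over all 18 libraries. A wide spread in the control libraries at 1 d (C_1d) or in DT therefore also enters each p.

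Young workers nurse the brood in the nest, and older workers leave it to forage. The hypopharyngeal glands, which lie in the head close to the brain, make royal jelly in nurses, and its main proteins are the major royal jelly proteins, encoded by the Mrjp genes, a bee-specific branch of the yellow gene family. Mrjp transcripts are also known from the brain itself. As workers age, juvenile hormone rises and vitellogenin falls, and the glands turn from jelly production to the making of sugar-processing enzymes.

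Levels are given as scaled FPKM, which is the deposited value (a count of fragments corrected for exon length and for the mapped total) divided by a factor of the library, the median ratio to the geometric mean of the 9119 genes above 0 in all 18 libraries. This factor was between 0.948 and 1.48 in C_10d and between 0.954 and 1.81 in C_5d. The 10 most abundant genes held 50.5% ± 6.28 of the summed FPKM in C_10d and 48.0% ± 9.70 in C_5d (SD, n = 3 each, two-sided exact permutation p = 0.8, smallest possible p 0.1). Between 9592 and 9653 genes were above 0 in the C_10d libraries and between 9552 and 9640 in the C_5d libraries. Replicate 3 of C_5d stood apart, because 605 genes (6.49%) differed by more than 1 log2 unit from the mean of the other C_5d libraries, against 180 to 358 genes for the other 5 libraries, and medians of gene lists that turn sign or move by over 1.5 times without it are given both ways. In the study's list of reads per library, C_5d replicate 3 also had the largest intronic share of all libraries. The numbers of fragments behind single values are not known here, so no counting error is given and a value of 0 is reported as listed at 0. The brain markers were present in every library. Syt1, a synaptic vesicle protein of neurons, had 25.99, 27.6 and 28.5 in the C_10d libraries, against 30.2, 26.1 and 35.3 in the C_5d libraries, and GlnS, glutamine synthetase of glia, had 361, 401 and 342 in the C_10d libraries, against 403, 384 and 414 in the C_5d libraries. Neither marker passed the test (adjusted p = 0.769 and 0.883).

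Few genes passed the test between 5 d and 10 d, and those that did were mostly lower at 10 d. Among 9316 genes tested with limma, 5 rose and 27 fell at a Benjamini-Hochberg adjusted p under 0.05 and a log2 fold change beyond 1, which is 0.0537% and 0.290% of the genes tested. The log2 fold change is the difference of mean log2(scaled FPKM + 0.1), C_10d minus C_5d, and understates the change of genes at low levels. Each of the 32 genes had all C_10d libraries on one side of all C_5d libraries, whereas over all genes tested 6.97% had every C_10d library above every C_5d library and 8.32% had every C_10d library below. The decreases had a median log2 fold change of -1.74 and reached -8.28, and 11 of them went beyond a log2 value of 3. Over all genes the median log2 fold change was 0.00, as the scaling sets it, with an SD of 0.41, and 89.3% of the genes lay within 0.5 of 0. Without a limit on the fold change 44 genes had an adjusted p under 0.05 (5 higher and 39 lower, 0.472%). At an unadjusted limma p under 0.05 there were 898 genes (9.64%), so genes that did not pass the test may also have changed. The counts depended on single libraries. Without C_5d replicate 1 there were 3 increases and 13 decreases, without C_10d replicate 1 5 and 15, without C_5d replicate 3 2 and 19, without C_10d replicate 3 2 and 27, without C_10d replicate 2 4 and 27 and without C_5d replicate 2 7 and 30.

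**Figure D1:**
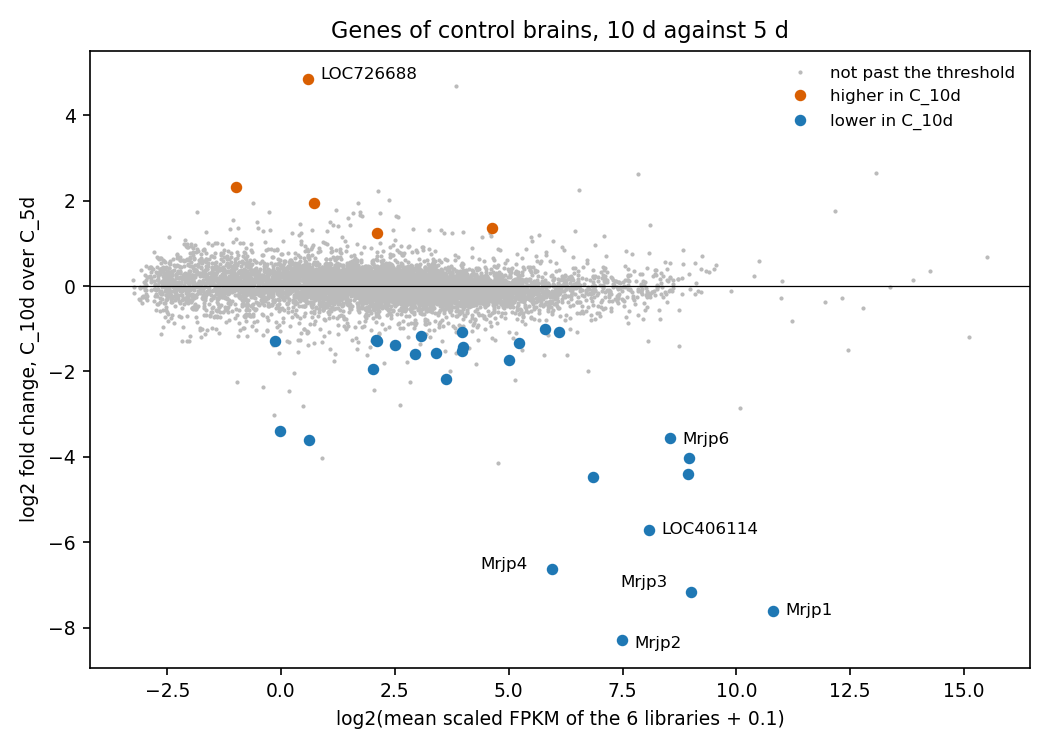
Change of each of the 9316 tested genes between control brains at 10 d and 5 d (y axis, log2 fold change, C_10d over C_5d) against its level (x axis, log2 of the mean scaled FPKM of the 6 libraries plus 0.1). Orange points are the 5 genes that rose, blue points the 27 that fell and grey points the genes not past the threshold, and the Mrjp genes form most of the lower right.

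The largest decreases were those of royal jelly protein genes. Of the 9 Mrjp genes, all tested, 6 fell and none rose, with a median log2 fold change of -4.46 over the list, against 0.00 over all genes. Mrjp1, which encodes the most abundant protein of royal jelly, had 5.07, 21.4 and 54.9 in the C_10d libraries, against 4086, 3194 and 3406 in the C_5d libraries. Every C_10d library was thus far below every C_5d library, and the C_10d libraries differed among themselves more than the C_5d libraries did. The group means were 27.1 ± 25.4 in C_10d and 3562 ± 466 in C_5d, a 131-fold lower mean at 10 d (log2 fold change -7.60 ± 1.10 (SE), limma adjusted p = 0.00271). A supplementary list of the study has groups headed 3 d, taken here as the 5 d groups because values in it match the deposited 5 d means. It gives the levels of this gene, but not those of the other Mrjp genes in it, with the controls and the dinotefuran-fed bees exchanged relative to the deposited files. In the study's qPCR at 5 d, Mrjp1 was also lower in dinotefuran-fed bees than in controls, opposite to the deposited labels. The study's qPCR also had the alpha-glucosidase gene Hbg3 higher in dinotefuran-fed bees, at an age its text does not name. The deposited means of Hbg3 were 8056 in C_5d and 3658 in DT_5d, and 6123 in C_10d and 581 in DT_10d. Whether the labels hold for other genes was not tested. The deposited labels are followed here, and the size of the change of Mrjp1 depends on them. The decrease does not, since the lowest DT_5d library was at 25410.0, also above every C_10d library. Mrjp2 had 0.409, 1.17 and 2.20 in the C_10d libraries, against 411, 312 and 351 in the C_5d libraries (log2 fold change -8.28 ± 1.08 (SE), adjusted p = 0.00116), the largest decrease of all genes tested. Mrjp3 had 1.95, 8.72 and 19.7 in the C_10d libraries, against 1256, 902 and 914 in the C_5d libraries (log2 fold change -7.15, adjusted p = 0.00252). In all of these genes replicate 1 of C_10d was the lowest library and replicate 3 the highest. Without C_10d replicate 1 the log2 fold changes were -6.69 for Mrjp1, -7.70 for Mrjp2 and -6.26 for Mrjp3, and without C_10d replicate 3 they were -8.39, -8.79 and -7.89.

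Mrjp4, Mrjp5 and Mrjp6 also fell, with smaller fold changes. Mrjp4 had 0.390, 1.28 and 2.40 in the C_10d libraries, against 155, 123 and 85.98 in the C_5d libraries (log2 fold change -6.63, adjusted p = 0.0138). The call of Mrjp4 was lost without any 1 of 5 of the libraries (adjusted p = 0.0510 to 0.0966) and held only without C_10d replicate 3 (adjusted p = 0.0312), while its log2 fold change stayed between -7.17 and -5.99. Mrjp5 had 4.12, 20.4 and 10.3 in the C_10d libraries, against 192, 167 and 299 in the C_5d libraries (log2 fold change -4.46, adjusted p = 0.0130). Its call was lost without C_10d replicate 1 (log2 fold change -3.87, adjusted p = 0.0828), without C_5d replicate 1 (adjusted p = 0.0589) and without C_5d replicate 3 (adjusted p = 0.0712). Mrjp6 had 24.97, 114 and 66.1 in the C_10d libraries, against 741, 593 and 703 in the C_5d libraries (log2 fold change -3.56, adjusted p = 0.00204), and was the most abundant Mrjp gene at 10 d. It had the smallest change of the 6, with -2.96 without C_10d replicate 1 and -4.05 without C_10d replicate 2.

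The other Mrjp genes did not pass the test. Mrjp7 had 2.99, 2.08 and 3.91 in the C_10d libraries, against 11.5, 10.99 and 8.45 in the C_5d libraries, so that its libraries did not overlap, but its adjusted p was 0.707 (log2 fold change -1.78 ± 1.24 (SE)). In a fit of the 6 control libraries alone the same log2 fold change had an adjusted p of 0.0246. Mrjp8 had 4.27, 6.25 and 6.42 in the C_10d libraries, against 10.4, 9.05 and 4.43 in the C_5d libraries (log2 fold change -0.42, adjusted p = 0.716). Mrjp9 had 33.98, 52.3 and 56.4 in the C_10d libraries, against 58.3, 51.9 and 40.7 in the C_5d libraries (log2 fold change -0.10, adjusted p = 0.953). The libraries of Mrjp8 and Mrjp9 overlapped, and at 10 d Mrjp9 was second only to Mrjp6 within the family.

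**Figure D2:**
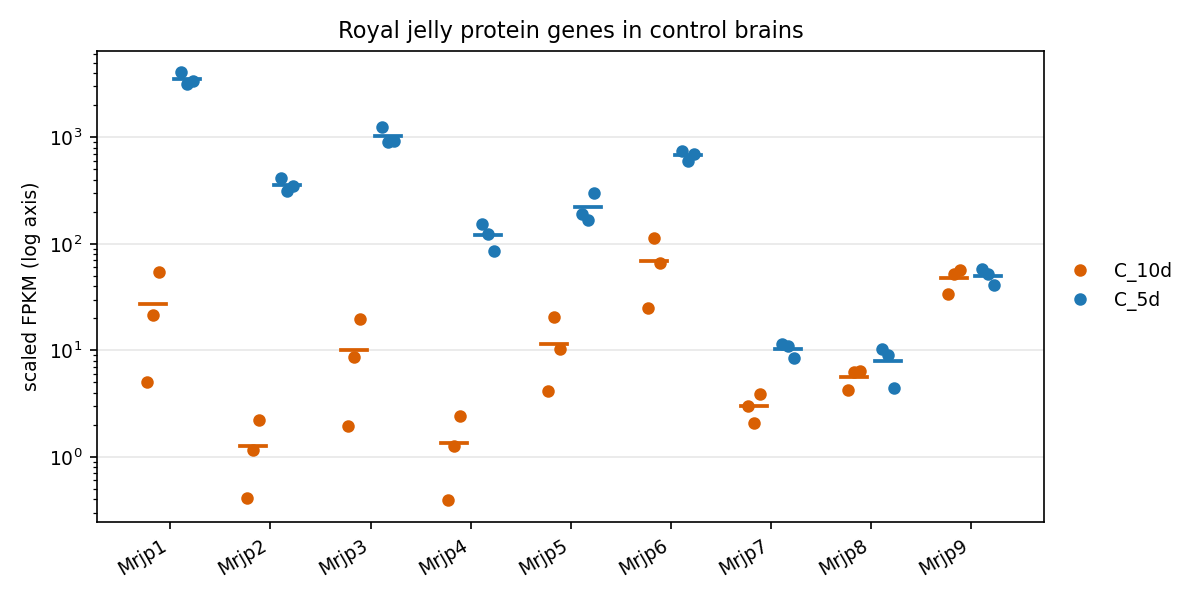
Scaled FPKM (y axis, log scale) of the 9 Mrjp genes (x axis) in the 3 C_10d (orange, left) and 3 C_5d (blue, right) libraries. Points are libraries and short lines are group means, and the groups are far apart for Mrjp1 to Mrjp6, closer for Mrjp7 and overlapping for Mrjp8 and Mrjp9.

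The Mrjp genes lie in a row on linkage group 11 of the assembly Amel_HAv3.1, between bases 2268450 and 2325880. The annotated order is Mrjp3, Mrjp1, Mrjp4, Mrjp6, Mrjp5, Mrjp2, Mrjp7, Mrjp8 and Mrjp9, so the 6 that fell form the first stretch of the row and the 3 that did not pass the test the last. The next gene on either side, Y-e3 (bases 2259179 to 2265574) and Y-h (bases 2327583 to 2341854), both of the yellow family, had log2 fold changes of 0.76 (adjusted p = 0.478) and 0.40 (adjusted p = 0.731), and none of the 4 yellow genes in the list passed the test (median 0.33). Mrjp genes are close copies of each other, and reads that fit several copies could have been split between them by the counting. Summed over the 9 genes, the level was between 78.2 and 228 in C_10d and between 5363 and 6921 in C_5d. This was 0.0262% to 0.0833% of the summed FPKM in the C_10d libraries and 1.36% to 2.56% in the C_5d libraries.

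Other genes of the glands did not all follow, among those matched by symbol. Glucose oxidase and apisimin, also meant as gland markers, had no matching symbol and are not covered. They may be present under a LOC symbol, so the genes below do not stand for the glands as a whole. Of the 4 head gland markers, Mrjp1, Mrjp2 and Mrjp3 fell and Hbg3, the alpha-glucosidase of the hypopharyngeal gland that digests sucrose, did not pass the test. Hbg3 had 3329, 8918 and 6124 in the C_10d libraries, against 7519, 8127 and 8522 in the C_5d libraries (log2 fold change -0.51, adjusted p = 0.944), with replicate 1 of C_10d lowest as for the Mrjp genes. Neither of the other alpha-glucosidases, Hbg2 and AGLU2, passed the test (median of the 3 genes -0.04, and -0.22 without C_5d replicate 3). Summed over the 4 markers, the level was between 3336 and 8949 in C_10d and between 12535 and 13271 in C_5d, and the part of gland tissue in these decreases was not tested. In such bulk samples, fewer cells of a type and less RNA per cell cannot be told apart.

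The C_1d libraries differed widely in the Mrjp genes. Their scaled FPKM was 1432 to 39732 for Mrjp1 (mean 23909), 151 to 8650.1 for Mrjp2 (mean 5565), 478 to 11809 for Mrjp3 (mean 6828), 61.7 to 4809 for Mrjp4 (mean 2697) and 54.5 to 800.4 for Mrjp5 (mean 515). Each of these means was above the C_5d mean, but the lowest C_1d library was below every C_5d library, so the means give no direction between 1 d and 5 d. Mrjp6 was at 125 to 341 in C_1d (mean 199.7), below its C_5d mean of 679 and above its C_10d mean of 68.5. By means alone, among all 27 genes that fell, the C_1d mean was above the C_5d mean for 7 and below it for 20, and 8 genes had a C_5d mean at least 2 times both the C_1d and the C_10d mean. The C_1d mean was above the C_10d mean for 26 of the 27.

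Several genes that carry only a LOC symbol here also fell strongly, by less than Mrjp1 to Mrjp4 and by more than Mrjp6. Gene descriptions were not at hand, so their roles are not given. LOC406114 (linkage group 13, bases 9129778 to 9132956) had 3.53, 15.5 and 17.8 in the C_10d libraries, against 555, 564 and 463 in the C_5d libraries (log2 fold change -5.71 ± 0.89 (SE), adjusted p = 0.00460). LOC725114 (linkage group 15, bases 5573219 to 5574053) had 27.5, 54.9 and 55.2 in the C_10d libraries, against 1081, 995 and 739 in the C_5d libraries (log2 fold change -4.40 ± 0.30 (SE), adjusted p = 1.14e-06). LOC409709 (linkage group 6, bases 15037182 to 15039633) had 30.3, 99.5 and 60.3 in the C_10d libraries, against 1034, 1066 and 709 in the C_5d libraries (log2 fold change -4.02 ± 0.36 (SE), adjusted p = 1.62e-05). All of these were highest at 5 d, with means of 86.3, 278 and 304 in C_1d, and their lowest library was again replicate 1 of C_10d. Without that library the log2 fold changes were -4.97 for LOC406114, -4.07 for LOC725114 and -3.57 for LOC409709.

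LOC725114 lies within LOC551957 (linkage group 15, bases 5493865 to 5633547), which fell less. LOC551957 had 38.8, 38.7 and 33.3 in the C_10d libraries, against 78.8, 75.2 and 69.3 in the C_5d libraries (log2 fold change -1.01, adjusted p = 0.0130), the smallest change of the 27, and its call was lost without C_5d replicate 1 (adjusted p = 0.0915) and without C_10d replicate 3 (log2 fold change -0.94). The library kit named in the study does not mark the strand, so reads of overlapping genes cannot be told apart by strand. In all, 11 of the 32 genes that changed overlap another annotated gene and 4 of them lie inside another one.

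Genes at lower levels also fell. LOC724335 (linkage group 11, bases 2372102 to 2374992) had 0.0973, 0.138 and 0.152 in the C_10d libraries, against 2.72, 3.33 and 2.13 in the C_5d libraries (log2 fold change -3.61 ± 0.26 (SE), adjusted p = 1.14e-06), with 7 annotated genes between it and Mrjp2. LOC724900 (linkage group 3) had 4.98, 4.46 and 3.62 in the C_10d libraries, against 19.7, 21.3 and 18.8 in the C_5d libraries (log2 fold change -2.18 ± 0.16 (SE), adjusted p = 1.14e-06). LOC409814 (linkage group 8) had 1.31, 1.81 and 1.61 in the C_10d libraries, against 6.91, 5.65 and 6.28 in the C_5d libraries (log2 fold change -1.94 ± 0.22 (SE), adjusted p = 0.000289). The libraries within each group lay close together for these genes, and no library left out ended their calls.

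LOC408306 (linkage group 10) had 14.8, 14.7 and 14.8 in the C_10d libraries, against 48.4, 42.7 and 58.2 in the C_5d libraries (log2 fold change -1.74, adjusted p = 0.0106), which is nearly the same level in all C_10d libraries. Its call was lost without C_10d replicate 1 (adjusted p = 0.0512), C_5d replicate 1 (adjusted p = 0.0511) or C_5d replicate 3 (adjusted p = 0.0603). LOC409972 (linkage group 6) had 3.33, 4.27 and 3.56 in the C_10d libraries, against 11.2, 9.25 and 14.2 in the C_5d libraries (log2 fold change -1.60, adjusted p = 0.000278), and an adjusted p of 0.125 for the values as deposited. LOC100577331, which lies inside the serotonin receptor gene 5-HT2beta on linkage group 10, had 0, 0.111 and 0.0761 in the C_10d libraries, against 2.96, 1.05 and 1.11 in the C_5d libraries (adjusted p = 0.0106), so that 1 C_10d library was listed at 0 and the log2 fold change of -3.39 rests on the pseudocount. With a pseudocount of 1 it was -1.28 (adjusted p = 0.163), and the call was also lost without C_10d replicate 1 (adjusted p = 0.0664) or C_5d replicate 1 (adjusted p = 0.0804). The remaining genes that fell were LOC726134, LOC724341, LOC551735, LOC100576484, LOC100576903, LOC726272, LOC411317, LOC726197 and LOC410516, with log2 fold changes between -1.07 and -1.56, besides PPO and ND5.

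Of the 5 genes that rose, all carry only a LOC symbol here. LOC726688, on a sequence not placed on a linkage group, had 2.45, 2.82 and 3.16 in the C_10d libraries, against 0, 0 and 0 in the C_5d libraries, so it was listed at 0 in all C_5d libraries and no fold change is given (adjusted p = 0.0209). LOC113219417 (linkage group 1) had 0.883, 0.692 and 0.644 in the C_10d libraries, against 0.0606, 0.0551 and 0.0889 in the C_5d libraries, under a scaled FPKM of 1 in both groups (adjusted p = 0.0292). The calls of both were lost without any 1 of the 6 libraries (adjusted p = 0.0653 to 0.0959 for LOC726688 and 0.0757 to 0.142 for LOC113219417).

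LOC726758 (linkage group 12, bases 9148479 to 9156542) had 2.00, 2.59 and 2.92 in the C_10d libraries, against 0.642, 0.481 and 0.597 in the C_5d libraries (log2 fold change 1.94 ± 0.29 (SE), adjusted p = 0.00322), and its call held without any 1 library. LOC410370 (linkage group 12) had 45.3, 22.6 and 39.2 in the C_10d libraries, against 12.9, 15.5 and 12.04 in the C_5d libraries (log2 fold change 1.35, adjusted p = 0.0130), with a call that was lost without C_10d replicate 1, C_10d replicate 3, C_5d replicate 1 or C_5d replicate 3 (adjusted p = 0.0693 to 0.0812). LOC725204 (linkage group 16) had 4.46, 6.49 and 6.80 in the C_10d libraries, against 2.96, 2.57 and 1.84 in the C_5d libraries (log2 fold change 1.24, adjusted p = 0.00454). The increases were fewer than the decreases, and LOC726758 and LOC725204 were the ones that held without any 1 library. For the values as deposited the calls of LOC726758 (adjusted p = 0.111), LOC410370 (0.342) and LOC725204 (0.211) were lost.

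Most antimicrobial peptide genes had higher values at 10 d, but none passed the test. Of the 5 genes, 4 had every C_10d library above every C_5d library, where 6.97% of all genes did, and the median log2 fold change was 1.77 (1.39 without C_5d replicate 3). The gene of hymenoptaecin (LOC406142), a peptide induced by bacterial infection, had 20550.0, 10847 and 12846 in the C_10d libraries, against 1611, 2863 and 2462 in the C_5d libraries (log2 fold change 2.66 ± 0.94 (SE), adjusted p = 0.329). Apid1, which encodes apidaecin, had 474, 272 and 437 in the C_10d libraries, against 39.1, 72.8 and 85.02 in the C_5d libraries (log2 fold change 2.62 ± 0.91 (SE), adjusted p = 0.313). In a fit of the 6 control libraries alone Apid1 had an adjusted p of 0.0187. The gene of abaecin (LOC406144) had 9137, 4582 and 7353 in the C_10d libraries, against 2136, 3099 and 1179 in the C_5d libraries (log2 fold change 1.77, adjusted p = 0.301).

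The defensins differed from each other. Def2 had 0.435, 0.545 and 0.656 in the C_10d libraries, against 0.191, 0.259 and 0.0543 in the C_5d libraries, all under 1 (log2 fold change 1.34, adjusted p = 0.427). Def1 had 3599, 3296 and 3352 in the C_10d libraries, against 4144, 5759 and 3574 in the C_5d libraries, with overlapping libraries (log2 fold change -0.37, adjusted p = 0.911). Summed over the 5 genes, the level was between 18997 and 33762 in C_10d and between 7300.2 and 11794 in C_5d, which was 5.28% to 11.3% of the summed FPKM in C_10d and 2.18% to 3.22% in C_5d.

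**Figure D3:**
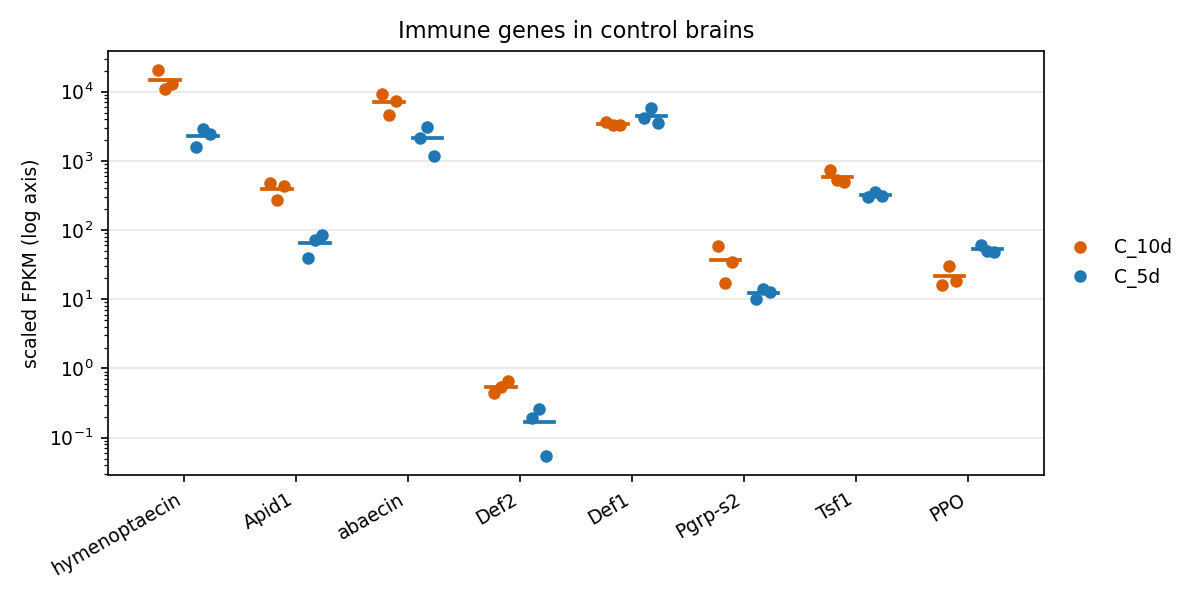
Scaled FPKM (y axis, log scale) of 8 immune genes (x axis) in the 3 C_10d (orange, left) and 3 C_5d (blue, right) libraries, with lines at the group means. Hymenoptaecin, Apid1, abaecin, Def2, Pgrp-s2 and Tsf1 have every C_10d library above every C_5d library without passing the test, Def1 overlaps, and PPO is lower in C_10d.

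Among the 12 genes of immune recognition and signalling, 1 fell, none rose and the median log2 fold change was -0.00 (0.05 without C_5d replicate 3). PPO, the prophenoloxidase whose product makes melanin in haemolymph and wounds, had 16.2, 30.4 and 18.4 in the C_10d libraries, against 60.6, 50.3 and 48.9 in the C_5d libraries (log2 fold change -1.34 ± 0.24 (SE), adjusted p = 0.0138). Its call was lost without C_10d replicate 1 (adjusted p = 0.0927), C_10d replicate 3 (adjusted p = 0.0788) or C_5d replicate 1 (adjusted p = 0.0959). Haemocytes make PPO, and it was the only haemocyte marker in the lists. Pgrp-s2, a recognition protein for bacterial cell walls, had 59.6, 17.2 and 34.3 in the C_10d libraries, against 10.1, 14.2 and 12.7 in the C_5d libraries (log2 fold change 1.42, adjusted p = 0.284). Tsf1, transferrin, had 731, 521 and 494 in the C_10d libraries, against 299, 352 and 312 in the C_5d libraries (log2 fold change 0.84, adjusted p = 0.429). Both had C_10d libraries above all C_5d libraries without passing the test.

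Storage proteins and hormone factors did not pass the test. All 7 storage and carrier genes had log2 fold changes below 0 with a median of -0.28, and 2 of them had C_10d libraries below all C_5d libraries, where 8.32% of all genes did. Hex70a, a hexamerin stored in the fat body, had 1.09, 3.37 and 3.09 in the C_10d libraries, against 13.6, 12.97 and 7.81 in the C_5d libraries (log2 fold change -2.25 ± 0.55 (SE), adjusted p = 0.103), and passed the threshold only with the values as deposited (adjusted p = 0.0119). Vg, vitellogenin, had 2.01, 9.95 and 8.24 in the C_10d libraries, against 6.64, 6.38 and 5.72 in the C_5d libraries with overlapping libraries (log2 fold change -0.18, adjusted p = 0.964). Summed over 5 fat body markers, the level was between 6.02 and 15.8 in C_10d and between 15.6 and 22.9 in C_5d.

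Among 12 juvenile hormone and ecdysone genes none passed the test (median 0.03, and 0.10 without C_5d replicate 3, smallest adjusted p = 0.273). That p belonged to LOC724216, listed by RefSeq under the synonym jhamt, the juvenile hormone acid methyltransferase of hormone synthesis, with 3.23, 2.45 and 2.06 in the C_10d libraries, against 6.49, 3.28 and 3.86 in the C_5d libraries (log2 fold change -0.76). Kr-h1, a transcription factor induced by juvenile hormone, had 44.97, 50.3 and 65.9 in the C_10d libraries, against 43.7, 34.96 and 60.2 in the C_5d libraries (log2 fold change 0.23, adjusted p = 0.807). The clock genes Per and Cry2 had log2 fold changes of 0.10 and -0.05 (adjusted p = 0.946 and 0.972).

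Genes by which neurons signal stayed below the threshold. Of 65 genes in 6 lists of receptors, channels, synapse proteins, transmitter uptake and neuropeptides, none passed the test (smallest limma adjusted p = 0.248), 5 had an unadjusted p under 0.05 (7.69%, against 9.64% of all genes) and 59 had a log2 fold change within 0.5 of 0. The medians by list, with the value without C_5d replicate 3 in brackets, were 0.09 (0.08) for 10 nicotinic acetylcholine receptor subunits, 0.01 (0.16) for 8 GABA, glutamate and histamine receptors, 0.16 (0.38) for 12 genes of amine signalling, -0.24 (-0.12) for 4 of transmitter uptake, 0.09 (0.18) for 16 synapse and ion channel genes and -0.02 (0.18) for 15 neuropeptide and receptor genes. The largest difference was that of Pban, which encodes the pheromone biosynthesis activating neuropeptide. Pban had 2.14, 1.54 and 1.53 in the C_10d libraries, against 0.793, 0.538 and 0.771 in the C_5d libraries, with C_10d libraries above all C_5d libraries (log2 fold change 1.20 ± 0.38 (SE), adjusted p = 0.248). At the other end, 5-HT1, a serotonin receptor, had 2.31, 2.06 and 1.41 in the C_10d libraries, against 3.26, 3.67 and 2.94 in the C_5d libraries (log2 fold change -0.76, adjusted p = 0.485). InR-2, an insulin receptor, had 3.79, 5.21 and 4.21 in the C_10d libraries, against 2.77, 3.56 and 3.40 in the C_5d libraries (log2 fold change 0.42, adjusted p = 0.487).

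**Figure D4:**
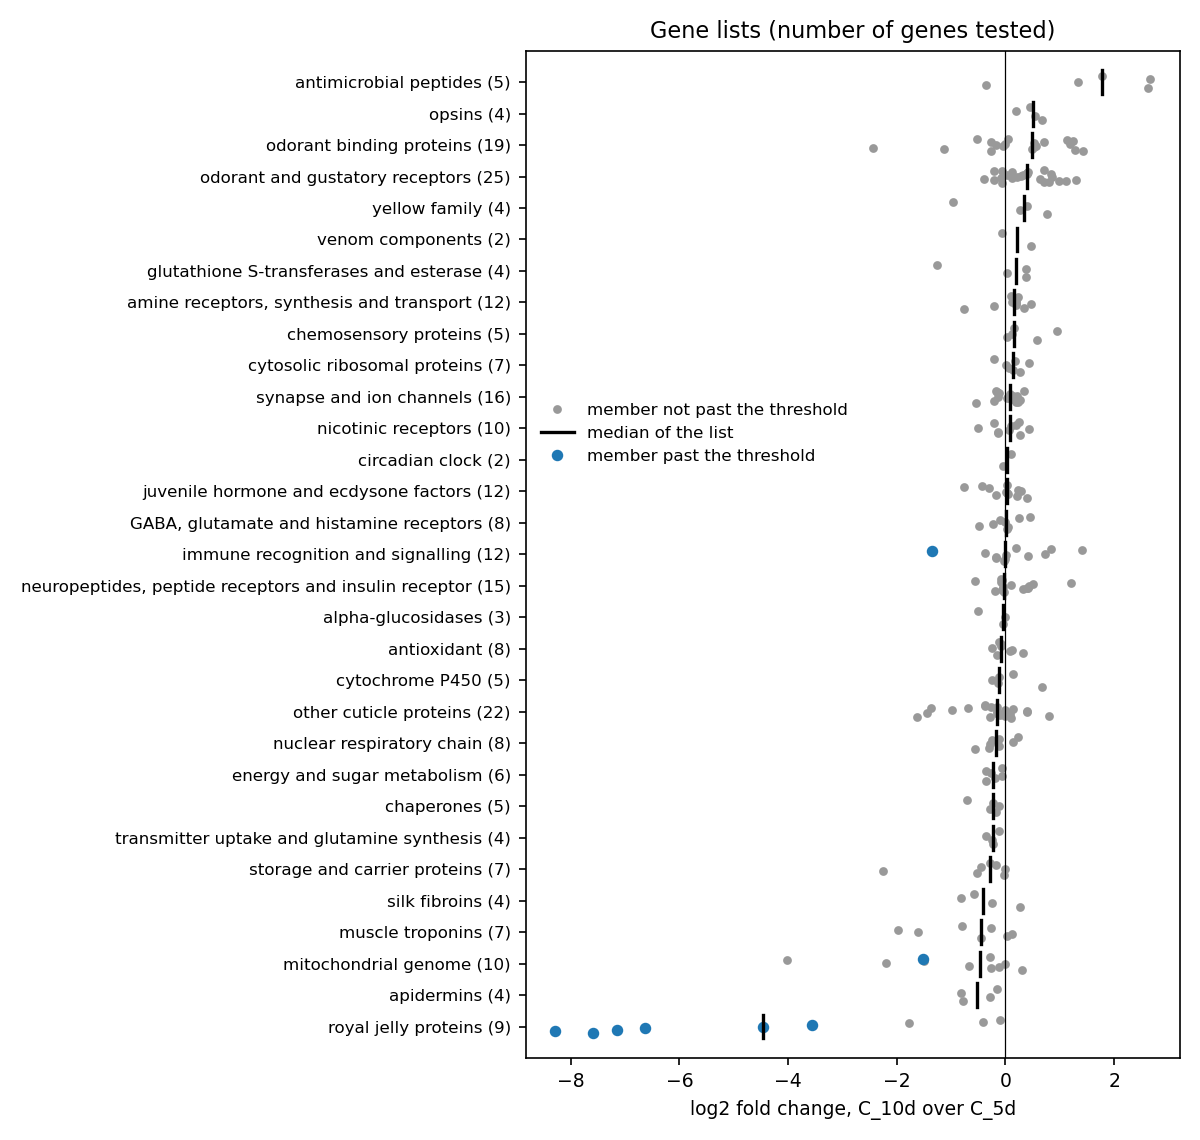
Log2 fold change (x axis, C_10d over C_5d) of the tested members of 31 gene lists (y axis, number of genes tested in brackets), ordered by their median (black line). Grey points did not pass the threshold and blue points did: 6 royal jelly protein genes, PPO and ND5.

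Photoreceptor genes stood slightly higher at 10 d without passing the test. All 4 opsins had C_10d libraries above all C_5d libraries, where 6.97% of all genes did, and their median log2 fold change was 0.50 (0.56 without C_5d replicate 3). Lop1, the main long-wavelength opsin, had 768, 613 and 557 in the C_10d libraries, against 407, 416 and 493 in the C_5d libraries (log2 fold change 0.55, adjusted p = 0.618). Uvop, the ultraviolet opsin, had 44.4, 49.6 and 44.2 in the C_10d libraries, against 33.4, 32.7 and 35.4 in the C_5d libraries (log2 fold change 0.44, adjusted p = 0.266), and Blop, the blue opsin, had 21.9, 17.6 and 15.2 in the C_10d libraries, against 11.03, 10.9 and 11.7 in the C_5d libraries (log2 fold change 0.68, adjusted p = 0.432). Opsins mark retinal cells that stay attached to a dissected brain, and their part in other results was not tested.

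The median of the odorant binding proteins and the difference of Obp1 rested on 1 library. Of 19 genes none passed the test and the median log2 fold change was 0.49, but without C_5d replicate 3 it was -0.08. Obp1, which binds queen pheromone components, had 383, 311 and 369 in the C_10d libraries, against 258, 303 and 29.1 in the C_5d libraries (log2 fold change 1.42, adjusted p = 0.433), and the low library was replicate 3 of C_5d. Without it the log2 fold change was 0.34 (adjusted p = 0.736). Obp4 had 161, 171 and 182 in the C_10d libraries, against 118, 138 and 71.6 in the C_5d libraries (log2 fold change 0.70, adjusted p = 0.289), and its log2 fold change without that library was 0.43. In the other direction, Obp14 had 0.873, 0.857 and 1.77 in the C_10d libraries, against 8.52, 8.27 and 3.68 in the C_5d libraries (log2 fold change -2.43, adjusted p = 0.423), and -2.82 without it (adjusted p = 0.473).

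Of 35 odorant and gustatory receptors 25 were at levels that could be tested and none passed the test (median 0.39, and 0.22 without C_5d replicate 3). Or41 had the smallest adjusted p of these, 0.156, with 0.472, 0.370 and 0.566 in the C_10d libraries, against 0.242, 0.218 and 0.193 in the C_5d libraries (log2 fold change 0.83). The 5 chemosensory proteins had a median of 0.15 (0.07 without C_5d replicate 3) and none passed the test.

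Muscle, cuticle and silk genes, which mark other tissues of the bee, had medians below 0 and none passed the test. For 7 troponins the median was -0.45 and 4 had C_10d libraries below all C_5d libraries, where 8.32% of all genes did. TpnCIIa, a calcium-binding troponin C, had 40.98, 32.5 and 39.4 in the C_10d libraries, against 118, 151 and 84.2 in the C_5d libraries (log2 fold change -1.61 ± 0.45 (SE), adjusted p = 0.162), and passed the threshold with quantile normalization (adjusted p = 0.0235), with the values as deposited (adjusted p = 0.0173) and in the fit of the 6 libraries alone (adjusted p = 0.0326). TpnCIIb had 6.57, 4.40 and 4.14 in the C_10d libraries, against 21.4, 29.2 and 12.2 in the C_5d libraries (log2 fold change -1.98, adjusted p = 0.129), with an adjusted p of 0.00760 for the values as deposited. Summed over the muscle markers TpnI and TpnT, the level was between 174 and 230.4 in C_10d and between 206 and 301 in C_5d.

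For 4 apidermins, structural proteins of the cuticle, the median was -0.53, and for 22 tested genes of other cuticle proteins -0.15. Without C_5d replicate 3 these medians were -0.80 and -0.32. CPF2 had 33.4, 27.3 and 20.8 in the C_10d libraries, against 87.97, 90.03 and 70.6 in the C_5d libraries (log2 fold change -1.62, adjusted p = 0.706), and had an adjusted p of 0.0187 in the fit of the 6 libraries alone. The 4 silk fibroins had a median of -0.42. Of 4 venom genes 2 were at levels that could be tested, with a median of 0.20 (0.08 without C_5d replicate 3), and Apamin was listed at 0 in all 6 libraries.

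Among genes of energy supply 1 fell. Of the 13 protein-coding genes of the mitochondrial genome 10 were tested, and 9 had a log2 fold change below 0 (median -0.48). ND5, a subunit of respiratory complex I, had 7.92, 9.71 and 6.67 in the C_10d libraries, against 22.9, 20.9 and 25.6 in the C_5d libraries (log2 fold change -1.52 ± 0.32 (SE), adjusted p = 0.0471). This call lay at the threshold and was lost without any 1 library (adjusted p = 0.0752 to 0.185). Its neighbours on the mitochondrial genome also had C_10d libraries below all C_5d libraries. ND4 had 24.2, 25.9 and 12.8 in the C_10d libraries, against 57.8, 54.2 and 58.3 in the C_5d libraries (log2 fold change -1.50, adjusted p = 0.273), and ND4L had 0.0918, 0.304 and 0.0274 in the C_10d libraries, against 3.00, 3.35 and 3.89 in the C_5d libraries (log2 fold change -4.03, adjusted p = 0.198), with an adjusted p of 0.00448 in the fit of the 6 libraries alone. ND1, by far the most abundant of these genes, had 14470.0, 11742 and 6454 in the C_10d libraries, against 11385, 9323 and 10688 in the C_5d libraries (log2 fold change -0.02, adjusted p = 0.997). The study lists a locus for its ND1 transcript that reaches beyond the annotated gene (bases 12302 to 13219). The values may therefore not be of this gene alone, which was not tested.

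None of 8 nuclear respiratory chain genes passed the test (median -0.18, and -0.34 without C_5d replicate 3), nor did any of 6 genes of energy and sugar metabolism (median -0.22) or 5 chaperones (median -0.22). The 7 cytosolic ribosomal proteins had a median of 0.14, and -0.30 without C_5d replicate 3. Detoxification and antioxidant genes had medians of -0.12 for 5 cytochrome P450 genes, 0.20 for 4 glutathione S-transferases and esterase genes and -0.08 for 8 antioxidant genes, and none passed the test. Without C_5d replicate 3 these medians were 0.00, -0.02 and -0.18.

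Among 4174 lncRNA transcripts tested, 6 fell (0.144%) and none rose, while 81 were higher and 114 lower by more than 1 log2 unit at an unadjusted p under 0.05 (4.67%). The median log2 fold change was 0.05. TCONS_00082634, listed under LOC551957, had 1.42, 2.67 and 2.75 in the C_10d libraries, against 29.4, 25.4 and 21.8 in the C_5d libraries (log2 fold change -3.47 ± 0.31 (SE), adjusted p = 5.78e-05). It was the most abundant of the 6, and it was also higher at 5 d than at 1 d, with a C_1d mean of 9.86. TCONS_00081105, listed under LOC412795, had 0.191, 0.307 and 0.369 in the C_10d libraries, against 2.94, 2.18 and 1.66 in the C_5d libraries (log2 fold change -2.59, adjusted p = 0.000445). The gene LOC412795 itself had 6.62, 5.93 and 6.72 in the C_10d libraries, against 9.77, 9.49 and 8.93 in the C_5d libraries (log2 fold change -0.54, adjusted p = 0.106), a smaller difference that did not pass the test.

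XR_003305976.1, listed under LOC102654929, had 0.346, 0.378 and 0.0993 in the C_10d libraries, against 1.88, 2.92 and 2.61 in the C_5d libraries (log2 fold change -2.86, adjusted p = 0.00232). XR_003304742.1, listed under LOC102653584, had 0.141, 0 and 0 in the C_10d libraries, against 1.19, 1.64 and 0.984 in the C_5d libraries, so that it was listed at 0 in 2 of 3 C_10d libraries (adjusted p = 0.00187). TCONS_00020080, listed under LOC724900, had 0.853, 0.973 and 0.588 in the C_10d libraries, against 2.82, 3.71 and 2.51 in the C_5d libraries (log2 fold change -1.79, adjusted p = 0.0263), with a call that was lost without any 1 of 5 libraries and held without C_5d replicate 3. The last, XR_003305947.1, listed under LOC113219193, had 0, 0 and 0.0544 in the C_10d libraries, against 0.638, 0.334 and 0.623 in the C_5d libraries, so that it too was listed at 0 in 2 of 3 C_10d libraries (adjusted p = 0.00604). Its call was lost without C_10d replicate 2 (adjusted p = 0.0552), without C_5d replicate 1 (adjusted p = 0.0586), in the fit of the 6 libraries alone (adjusted p = 0.0541), with a pseudocount of 0.01 (adjusted p = 0.0782) and with a pseudocount of 1, where the log2 fold change was -0.58.

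Of the 6 lncRNA transcripts that fell, 2 are listed under genes that also fell, LOC551957 and LOC724900. In all, 11 tested lncRNA transcripts are listed under 5 of the genes that fell, and all 11 had a log2 fold change below 0 (median -1.35). Across 2331 lncRNA transcripts listed under a tested gene, the changes of transcript and gene had a Pearson's r of 0.30 and a Spearman's rho of 0.29, where the pairs share libraries and can share reads.

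Most of the genes that fell in controls also fell in the dinotefuran-fed bees. Their libraries are separate, but both steps use the same estimate of spread for each gene, so the 2 sets of calls are not independent. In DT_10d against DT_5d 279 genes fell (2.99% of those tested) and 98 rose (1.05%). Of the 27 genes that fell in the controls, 22 were among the 279, which is 81.5% of the controls' list and 7.89% of the DT list, and 25 had a lower mean in DT_10d than in DT_5d. Mrjp1 had 439 ± 298 in DT_10d and 33627 ± 10018 in DT_5d (SD, n = 3 each, log2 fold change -6.57, with the doubt on its 5 d levels given above), and Mrjp2 had 10.5 ± 5.36 in DT_10d and 5219 ± 1867 in DT_5d (log2 fold change -9.04). The difference between the 2 steps was not past the threshold for any Mrjp gene. It was imprecise for several of them, with 3.73 ± 1.75 (SE, limma adjusted p = 0.318) for Mrjp7 and -1.03 ± 1.56 (SE, adjusted p = 0.762) for Mrjp1. The test therefore does not show that the 2 steps were equal. None of the 5 genes that rose in the controls rose past the threshold in the DT libraries.

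The step itself, tested as a difference between controls and dinotefuran-fed bees in limma, differed for 12 of 9316 genes (0.129%), with a more negative step in the controls for 8 and a more positive one for 4. The widest difference was in LOC413560, which had 0.198 ± 0.0453 in C_10d and 0.231 ± 0.00866 in C_5d, against 2.97 ± 0.827 in DT_10d and 0.302 ± 0.0456 in DT_5d (difference of the log2 steps -3.06, adjusted p = 0.0166). This gene did not pass the test in the controls (adjusted p = 0.931). LOC412162 had 1.81 ± 0.711 in C_10d and 4.41 ± 0.187 in C_5d, against 4.53 ± 0.254 in DT_10d and 1.93 ± 0.579 in DT_5d, so its mean was lower at 10 d in the controls and higher at 10 d in the DT groups (difference -2.53, adjusted p = 0.0299).

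Of the genes that changed in the controls, 4 differed in their step. LOC725204, which rose in the controls, had 3.34 ± 0.277 in DT_10d and 7.21 ± 0.939 in DT_5d and so fell there (difference 2.32, adjusted p = 0.00236). LOC409972, which fell in the controls, had 5.30 ± 0.631 in DT_10d and 4.93 ± 0.185 in DT_5d (difference -1.69, adjusted p = 0.0153). LOC726272 had 1.91, 2.81 and 2.49 in the C_10d libraries, against 5.38, 4.95 and 7.46 in the C_5d libraries (adjusted p = 0.0341), and 6.85 ± 0.743 in DT_10d and 4.09 ± 1.51 in DT_5d (difference -2.05, adjusted p = 0.0299). LOC724335 had 0.157 ± 0.0539 in DT_10d and 0.638 ± 0.207 in DT_5d, a smaller fall than in the controls (difference -2.10, adjusted p = 0.0320). LOC726272 lost its call in the controls without any 1 library other than C_5d replicate 2 (adjusted p = 0.0513 to 0.176).

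**Figure D5:**
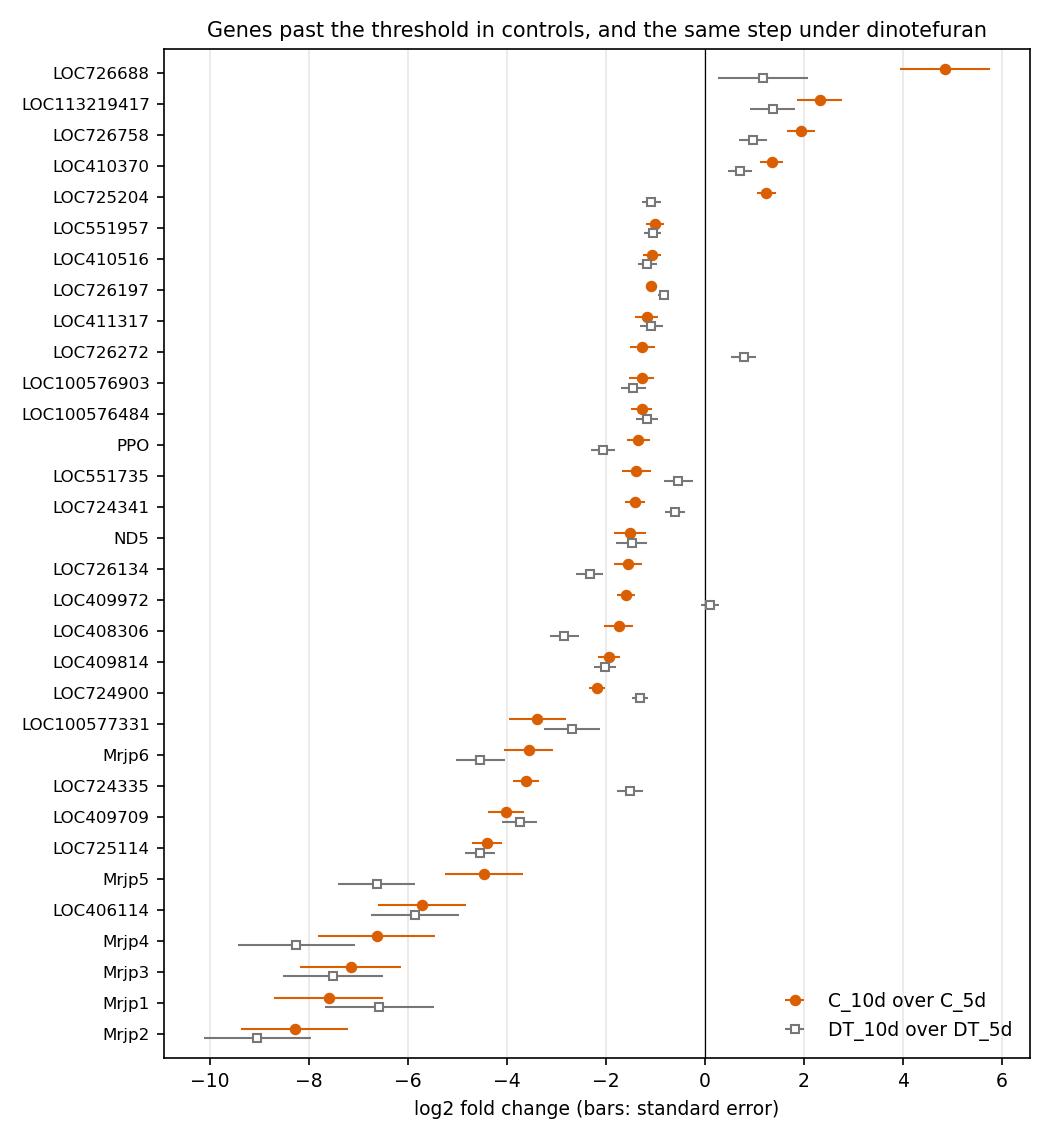
Log2 fold change with its standard error (x axis) of the 32 genes that changed in control brains (y axis), for C_10d over C_5d (orange circles) and DT_10d over DT_5d (open grey squares). Most pairs lie on the same side of 0, and LOC725204, LOC726272 and LOC409972 lie on opposite sides.

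For LOC413627, LOC727165 and LOC724285 the step was more positive in the controls, with the larger decrease in the DT groups. LOC413627 had 159 ± 40.5 in C_10d and 377 ± 9.56 in C_5d, against 68.5 ± 11.2 in DT_10d and 935 ± 152 in DT_5d (difference 2.50, adjusted p = 0.0299). LOC727165 had 88.8 ± 30.5 in C_10d and 149.6 ± 43.1 in C_5d, against 24.7 ± 4.76 in DT_10d and 254 ± 84.1 in DT_5d (difference 2.54, adjusted p = 0.0320). LOC724285 had 4.06 ± 0.370 in C_10d and 5.55 ± 0.0624 in C_5d, against 3.54 ± 0.370 in DT_10d and 10.4 ± 0.377 in DT_5d (difference 1.09, adjusted p = 0.0150). The values as deposited, without scaling, shift the median difference over all genes to -0.997, and on that scale 0 differences were positive and 10 negative. The differences for LOC413627, LOC727165 and LOC724285 were then 1.42, 1.47 and 0.02, and were not past the threshold.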

How the data were processed

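RNA-seq values of all 18 libraries were used, grouped by their labels. Reads had been aligned by the authors to Amel_HAv3.1 with Hisat2, assembled with StringTie, merged and compared with Cuffmerge and Cuffcompare, and deposited as FPKM values from Cuffdiff (Cufflinks). The option for normalization between libraries and the strand setting are not given in the sources used here. The 24419 mRNA rows carry 1 FPKM per gene, giving 9939 genes. The 6760 lncRNA transcripts carry their own, and those of DT_1d replicate 1 equal those of DT_10d replicate 1 and were left out. Low values did not share whole-read steps (at most 2.68% of genes in 153 pairs of libraries), so fragment counts could not be recovered from them. The study lists the reads of each library, but not the fragments behind each value.

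Values were divided by median ratios and tested with limma 3.58.1 (R 4.3.3, lmFit and eBayes with trend) on log2(value + 0.1), with 6 group means over all libraries, for rows of at least 0.1 in at least 3 libraries, adjusted by Benjamini-Hochberg within each class. The threshold was an adjusted p under 0.05 and a log2 fold change beyond 1. On simulated data for C_10d against C_5d, 182 of 200 genes changed by a log2 value of 2 were called, among 9262 genes, with 4 unchanged genes called. The simulated noise was normal and had the same spread in all groups, and smaller changes were not simulated. Named were the 15 largest increases and 15 largest decreases with groups not overlapping and a mean of at least 1, likewise 5 lncRNA transcripts each way and the genes listing them, the 5 largest differences of steps each way, and members of 31 lists. Members and lists were chosen with earlier results of these data known, and the lists were fitted to the symbols of the annotation. Other genes past the threshold are named by symbol. Of the gene IDs 9935 matched RefSeq, whose assembly is that of the files. Library measures were compared by an exact permutation test in Python 3.11.15.

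Alternatives were other scalings, pseudocounts, filters and thresholds, the 6 libraries alone (12 for the difference of steps), no trend, adjustment over both classes, the replicate number as a block, and each of the 6 libraries left out.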

Additional observations from a re-analysis of the deposited data

Results flagged for a closer look

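The step between 5 d and 10 d differed between controls and dinotefuran-fed bees, by limma's test of the difference itself, for the following named genes, each value being the log2 step in C minus that in DT. It was more negative in C for LOC413560 (-3.06), LOC412162 (-2.53), LOC724335 (-2.10), LOC726272 (-2.05) and LOC409972 (-1.69). It was more positive in C for LOC727165 (2.54), LOC413627 (2.50), LOC725204 (2.32) and LOC724285 (1.09). The adjusted p lay between 0.00236 and 0.0320 with 3 libraries in each group. These differences rest on the deposited labels, with the doubt on the 5 d labels given above. Without some 1 library of C_10d or C_5d, the differences of LOC413560, LOC412162, LOC724335, LOC726272, LOC727165 and LOC413627 were no longer past the threshold, with adjusted p up to 0.107 for LOC727165 without C_10d replicate 2. Those of LOC725204, LOC409972 and LOC724285 stayed past it without any 1 of these 6 libraries.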

How the results depend on the processing

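Of the 32 genes past the threshold, 10 stayed past it under each of 17 alternative settings (LOC406114, LOC409709, LOC409814, LOC724335, LOC724900, LOC725114, Mrjp1, Mrjp2, Mrjp3 and Mrjp6), and no called gene changed direction. The count of 32 genes was 135 at an unadjusted p and between 16 and 37 with 1 library left out. The values as deposited gave 25 genes, 16 of them among the 32, and the 6 libraries alone 41, 22 of them among the 32. For lncRNA transcripts the count of 6 was 195 at an unadjusted p, 10 with both classes adjusted together, and between 4 and 9 with 1 library left out. The count of 12 differences of steps was 338 at an unadjusted p, 26 with quantile normalization, 41 with the 12 libraries alone, and between 6 and 24 with 1 library left out. The causes were not tested. The labels share replicate numbers 1 to 3, but libraries of the same number did not deviate together (correlations -0.114, -0.058 and -0.095), and with the replicate block the counts were 29 genes, 6 lncRNA transcripts and 16 differences of steps. The replicate numbers were therefore not used as pairs, although 3 libraries a group cannot show that none of them are paired. With 3 libraries a group and a median SE of 0.21, changes near the limit of 1 were called or lost with single libraries. The fragments behind single values are not known, so the precision of low values cannot be given.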
